A study of Mus musculus with 12 samples.

Results

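MicroRNA-486 (miR-486) was followed in mouse gastrocnemius muscle together with miR-3107, the hairpin annotated on the opposite strand of the same DNA. The 4 rows of the deposited table whose symbols are mmu-miR-486-5p, mmu-miR-3107-5p, mmu-miR-486-3p and mmu-miR-3107-3p were taken, out of 2035 rows for 1900 mature miRNAs. The rows were taken by their names, and the locus was picked for description with earlier results of these data known. All 4 were above 0 in all 12 libraries and passed every filter used.

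miR-486 is processed from an intron of Ank1, the gene of the membrane skeleton protein ankyrin 1, and it is known from muscle fibres and from red blood cells. In muscle it belongs to the group of miRNAs that are switched on as myoblasts differentiate, and its 5p arm is the guide strand that is usually studied. Among its known mRNA targets is Foxo1, which encodes a transcription factor of the muscle atrophy programme. A hairpin that lies on both strands can in principle be read from either strand, and because the stem is nearly self-complementary, the miRNA from the 5p arm on the plus strand can closely resemble the miRNA from the 5p arm on the minus strand.

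The samples were gastrocnemius muscles of male C57BL/6 mice. Of the 12 small RNA libraries, 6 were from young mice, aged 6 months, and 6 were from mice at 24 months (aged), with no other treatment or genetic change in either group. The libraries were prepared from whole muscle, which holds blood, vessel and connective tissue cells beside the fibres. Reads over all miRNA rows of a library were estimated from the FPKM of a single read. They ranged from 122164 (aged replicate 5) to 7462911 (aged replicate 3), and from 197421 to 6190002 in the young group. A read assigned to several rows would count more than once in this estimate. Values are FPKM, in which reads are divided by the length of the mature miRNA and by sequencing depth, deposited as log2.

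In the GENCODE M21 annotation of mm10, Mir486 lies on the plus strand at chr8:23142555-23142682 and spans 128 bases. Mir3107 lies on the minus strand at chr8:23142573-23142662, spans 90 bases and is wholly inside the Mir486 interval. RefSeq lists mir-486a as a further name of Mir486 and mir-486b as a further name of Mir3107. Both lie within Ank1 (plus strand, chr8:22974844-23150497) and within the antisense gene Gm15816 (minus strand, chr8:23138794-23149585). Of the 15 annotated Ank1 transcripts that span the hairpins, 0 had an exon overlapping them. The hairpins were in the last intron of 14 of these 15 transcripts, and in 11 transcripts that intron ran from 23141721 to 23148280. The next exon began 5598 bases downstream of Mir486. The intron is shared by the long Ank1 transcripts, of 42 to 46 exons, and by 4 short ones of 3 to 5 exons that start within the last part of the gene.

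As an illustration, 2 opposite-strand pairs elsewhere in the genome show what the geometry means at the level of sequence, and they are printed because their partners, like the facing rows of miR-486 and miR-3107, kept a fixed difference across libraries. The sequences are from RefSeq (GRCm38.p6), written 5′ to 3′, and capitals mark the bases that are the exact reverse complement of the partner. In the first pair 20 bases are shared, miR-136-5p being at chr12:109595331-109595352 on the plus strand and miR-3071-3p at chr12:109595329-109595350 on the minus strand.
miR-136-5p: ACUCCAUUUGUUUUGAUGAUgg
miR-3071-3p: AUCAUCAAAACAAAUGGAGUcc
In the second pair 21 bases are shared, miR-338-3p being at chr11:120014781-120014802 on the minus strand and miR-3065-5p at chr11:120014780-120014801 on the plus strand.
miR-338-3p: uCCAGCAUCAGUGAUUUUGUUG
miR-3065-5p: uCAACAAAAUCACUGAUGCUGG
Read with strand, these partners are different molecules with different seeds. Whether the counting used strand is not given in the sources used here. Within each of these pairs the deposited log2 values were equal in all 12 libraries. In the first pair the likeness did not extend to the arms. The SD of the log2 ratio of 5p to 3p over the libraries was 0.709 for miR-136 and for miR-3071.

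The first question was how abundant miR-486 was and whether its level differed with age. miR-486-5p, the guide arm, had a lowest, median and highest level of 1877004, 2564789 and 3313673 FPKM in the 6 young libraries. In the 6 aged libraries these were 1970322, 2853279 and 3406833 FPKM. The ranges overlapped, as they did for the other 3 rows, while 2.7% of the 482 miRNAs tested had groups that did not overlap. The lowest values were in young replicates 4 and 5 and aged replicate 1, and the highest in aged replicate 2 and young replicate 3. The mean was 2539460 ± 556737 FPKM in young and 2742421 ± 546481 in aged muscle (SD, n = 6 each). These values rested on an estimated 9410 to 400100 reads per young library and 8192 to 450136 per aged library, so counting error was small beside the spread between animals.

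The other rows lay close to it. miR-486-3p, the opposite arm of the hairpin, averaged 2605200 ± 555155 FPKM in young and 2835991 ± 566538 in aged muscle. miR-3107-5p averaged 2481812 ± 528862 and 2701673 ± 539705 FPKM, and miR-3107-3p 2798244 ± 613471 and 3035188 ± 600892 (SD, n = 6 each). In every library the order was the same, miR-3107-3p being highest, followed by miR-486-3p, by miR-486-5p and last by miR-3107-5p. Between neighbours in this order the difference in means was much smaller than the SD over libraries, although its sign was the same in all 12 libraries. Within a library the 4 rows held ranks 4 to 9 among all mature miRNAs, with genomic copies of the same miRNA summed.

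For scale, the 4 most abundant miRNAs that were not part of this locus were miR-10b-5p (6059435 ± 1928465 FPKM in young and 5957999 ± 1118800 in aged muscle), miR-133a-3p (5367290 ± 1029294 and 4709737 ± 332187), miR-143-3p (4908544 ± 763186 and 5471142 ± 500730) and miR-22-3p (4764765 ± 1218813 and 4677591 ± 580549; SD, n = 6). miR-133a-3p is a muscle miRNA and miR-143-3p is best known from smooth muscle. The mean of miR-486-5p was below that of each of them in both groups. The level of miR-133a-3p is a sum over its genomic copies, whereas miR-486-5p is a single row. Their order therefore depends on how reads were assigned to rows.

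**Figure D1:**
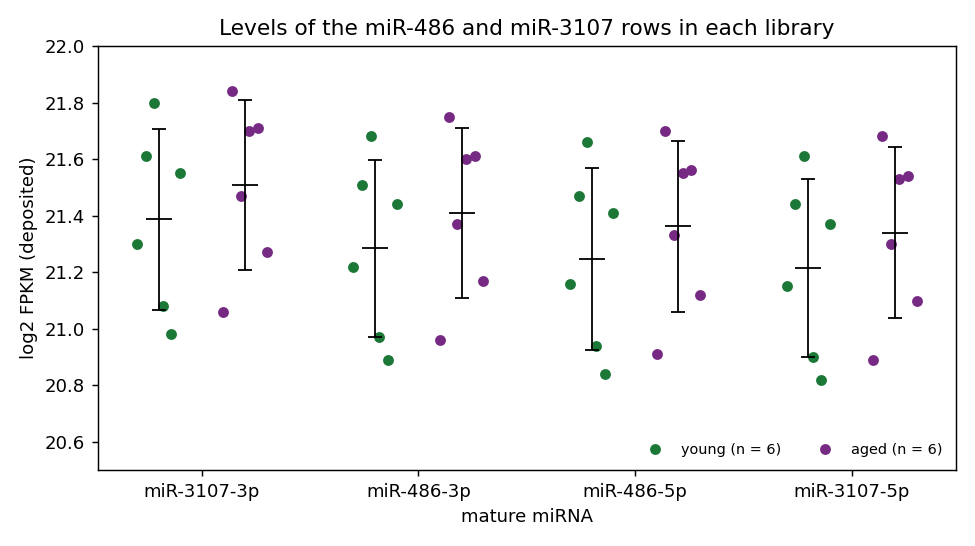
Deposited log2 FPKM of the 4 rows (vertical axis) for each mature miRNA (horizontal axis), 6 young libraries in green and 6 aged libraries in purple. The dash and bars are the mean and SD, n = 6. For miR-486-5p the young libraries lie between 20.84 and 21.66 and the aged between 20.91 and 21.70, and the same pattern of libraries repeats in each row.

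No change with age was called for any of the 4 rows. The log2 change of miR-486-5p from young to aged was 0.11 (SE 0.17, 95% interval -0.23 to 0.46, limma adjusted p = 0.835), a fold of 1.08 with an interval of 0.855 to 1.37. For miR-486-3p it was 0.12 (SE 0.16, interval -0.22 to 0.46, limma adjusted p = 0.804). The 2 rows of miR-3107 gave 0.12 each, with limma adjusted p = 0.804 for miR-3107-5p and 0.817 for miR-3107-3p. In each row 4 of the 6 aged libraries were above the young median. Over all 482 miRNAs tested the median log2 change was 0.07, and 2.9% were called at an adjusted p of 0.05. By size of change the 4 rows ranked between 366 and 379 of the 482. An exact permutation test of each row alone gave p = 0.517 for miR-486-5p, 0.485 for miR-486-3p, 0.485 for miR-3107-5p and 0.498 for miR-3107-3p (two-sided). In whole muscle, fewer cells of a type and less miRNA per cell cannot be told apart.

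As a share of the summed FPKM of the library, which needs no pseudocount, miR-486-5p took 5.91% ± 1.09 in young and 6.20% ± 0.928 in aged muscle (SD, n = 6). The difference was 0.289 percentage points (exact permutation test, p = 0.621, adjusted p = 0.621 over the 4 rows). The share of miR-486-3p was 6.06% and 6.41%, that of miR-3107-5p 5.78% and 6.10%, and that of miR-3107-3p 6.51% and 6.86% in young and aged muscle. Summed, the 4 rows came to 24.3% ± 4.41 (18.6% to 29.1%) in young and 25.6% ± 3.82 (20.5% to 30.9%) in aged muscle (exact permutation test, p = 0.582). When the 4 rows were replaced by miR-486-5p alone in the sum, its share was 7.29% ± 1.61 (5.25% to 9.15%) in young and 7.73% ± 1.43 (5.86% to 9.77%) in aged muscle (exact permutation test, p = 0.623). How reads were assigned to these rows is not given in the sources used here, so the sum of the 4 rows can count the same reads more than once and is no measure of separate molecules. If reads were instead divided between the rows, a single row would hold only a part of them. Leaving out a library moved the difference in the share of miR-486-5p from 0.00916 percentage points (without young replicate 5) to 0.537 (without aged replicate 1).

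The second question was how far the 4 rows were separate measurements. Differences of the deposited log2 values, which are given to 2 decimals, were taken within each library. miR-486-3p was 0.07 above miR-3107-5p in all 12 libraries, with an SD of 0. These are the 3p arm of the plus strand hairpin and the 5p arm of the minus strand hairpin, which face each other. The other facing pair, miR-486-5p and miR-3107-3p, differed by -0.14 in all 6 young libraries and by -0.14 or -0.15 in the aged ones. As ratios of values the offsets were 1.05 for miR-486-3p to miR-3107-5p and 1.10 for miR-3107-3p to miR-486-5p.

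Arms of the same hairpin were almost as tightly locked. miR-486-5p minus miR-486-3p averaged -0.04 and ranged from -0.06 to -0.02 (SD 0.0115 over 12 libraries). miR-3107-5p minus miR-3107-3p averaged -0.17 and ranged from -0.19 to -0.15 (SD 0.0104). miR-486-5p minus miR-3107-5p was between 0.01 and 0.05, and miR-486-3p minus miR-3107-3p between -0.12 and -0.08. In the same libraries the level of miR-486-5p itself spanned 20.84 to 21.70, so the rows moved together over a range far wider than any difference between them.

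For comparison, counting error was estimated for the case that each row had its own reads. It would give an SD of the log2 difference between the arms of miR-486 of 0.00302 in the deepest to 0.0223 in the shallowest library, or 0.0124 as a root mean square over the 12. The observed SD was 0.930 times that value for the arms of miR-486 and 0.404 times it for miR-486-5p and miR-3107-3p. For miR-486-3p and miR-3107-5p it was 0. The SD of the arms was larger in the young than in the aged libraries, a difference of spread that was not tested. In young libraries the SD between the arms of miR-486 was 0.0147, or 1.07 times counting error, and in aged libraries it was 0.00408, or 0.374 times. For miR-486-5p and miR-3107-3p these ratios were 0 in young and 0.481 in aged libraries. Both facing pairs thus varied less than separate reads would by counting alone in each age, and the arms did so in the aged libraries but not in the young ones. For the arms of miR-486 the aged SD comes from -0.04 in aged replicate 3 against -0.05 in the others, a single step of the rounding. The comparison cannot tell whether the arms had separate reads, since shared reads divided at random between 2 rows would vary in the same way. No pair differed in its mean between the ages after adjustment over the 6 pairs. The smallest p was 0.0606 for miR-486-5p against miR-3107-3p (exact permutation test, adjusted p = 0.364), and for the arms of miR-486 it was 0.214 (adjusted p = 0.429).

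**Figure D2:**
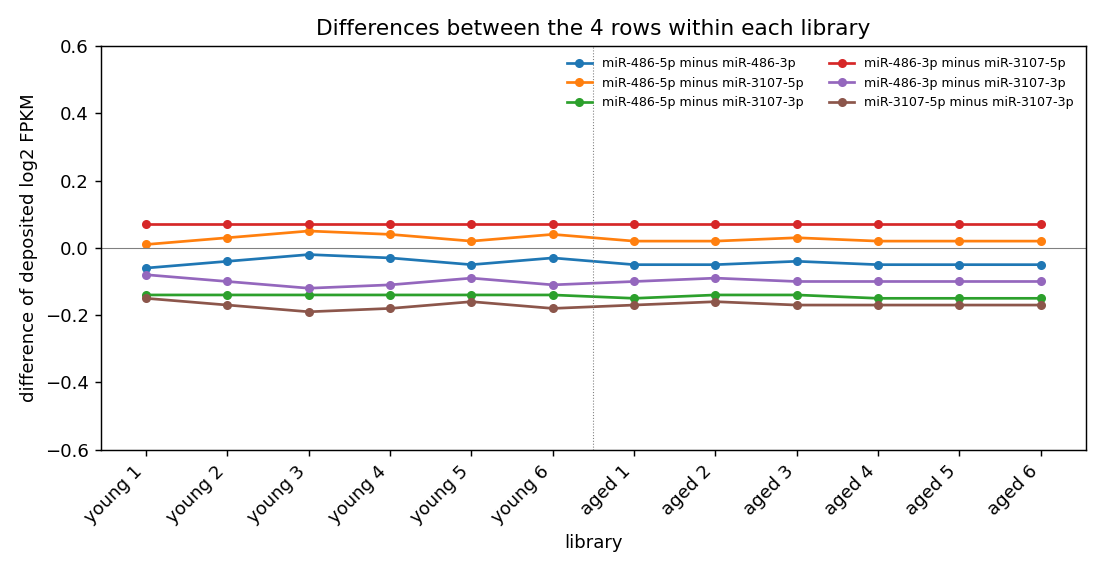
Difference of deposited log2 FPKM (vertical axis) for the 6 pairs of rows in each library (horizontal axis), young to the left and aged to the right of the dotted line. Lines join the libraries only to show which points belong to a pair. All 6 pairs stay within a band of a few hundredths, and miR-486-3p minus miR-3107-5p is 0.07 throughout.

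How unusual such constancy was could be read from the rest of the table. The 216 miRNAs above 0 in all libraries form 23220 pairs, and the median SD of their log2 difference was 0.583. An SD of at most 0.02 was found for 15 pairs, of which 6 were the pairs among the 4 rows and 9 were others. Of these 9, 8 lie on opposite strands of the same bases in RefSeq, among them miR-136-5p and miR-3071-3p, miR-338-3p and miR-3065-5p (both printed above), miR-24-3p and miR-3074-5p, miR-126a-3p and miR-126b-5p, miR-30e-3p and miR-30f, and miR-142-3p and miR-142b. The ninth was miR-126a-5p and miR-126b-3p, whose positions were not compared here. The next pair, miR-1a-3p and miR-1b-5p, had an SD of 0.0336. Constancy across facing strands was therefore shared with 8 other pairs, whereas among the pairs within the limit the locking of 5p to 3p was found for miR-486 and miR-3107 alone.

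The size of the constant offset was set beside the lengths of the miRNAs, since FPKM divides by length. In the 8 pairs with a length for both members the offset equalled the log2 ratio of the lengths to within 0.0109, and to within 0.00189 when 1 base was taken off each length. Only 2 of these pairs have unequal lengths, miR-24-2-5p with miR-3074-2-3p (22 and 20 bases) and miR-142-3p with miR-142b (23 and 20 bases). miR-24-2-5p minus miR-3074-2-3p was -0.14 on average, as was miR-486-5p minus miR-3107-3p. The lengths of the miR-486 and miR-3107 rows were not compared here.

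Arm balance, the ratio of 5p to 3p, is usually far from even because 1 arm of a miRNA duplex is loaded and the other degraded. In 40 hairpins both arms were above 0 in all libraries. The mean log2 ratio of 5p to 3p was -0.04 for miR-486 and -0.17 for miR-3107. In the other 38 hairpins its size was between 0.246 and 13.5, with a median of 3.34, and in 0 of the 38 was it within 0.2 of an even balance. The SD of the ratio over the 12 libraries was 0.0104 for miR-3107 and 0.0115 for miR-486. The smallest SD among the other 38 was 0.131 (miR-133a), the median 0.562 and the largest 1.20. In these values miR-486 and miR-3107 thus had the most even and the least variable arm ratios of the 40. Their rows were nearly fixed multiples of each other, so these ratios do not measure arm use. For the same reason the ratios of miR-486 and miR-3107 are not separate observations.

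**Figure D3:**
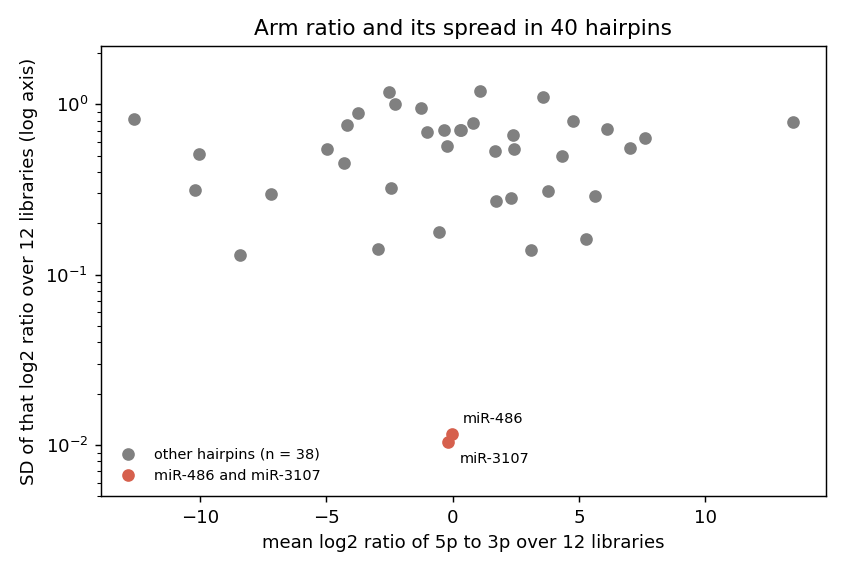
Mean log2 ratio of 5p to 3p (horizontal axis) against the SD of that ratio over 12 libraries (vertical log axis) for 40 hairpins. miR-486 and miR-3107, in red, have SDs of 0.0115 and 0.0104, and the 38 other hairpins, in grey, have SDs from 0.131 to 1.20. The rows of miR-486 and miR-3107 were nearly fixed multiples of each other, so their ratios do not measure arm use.

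Between the ages the arm balance of miR-486 changed by -0.01 (SE 0.13, 95% interval -0.30 to 0.28, limma adjusted p = 0.971) and that of miR-3107 by 0.00 (SE 0.13, interval -0.29 to 0.30, limma adjusted p = 0.983). The fit covered 130 hairpins, of which 0.769% were called. Most of the SE in this fit comes from the spread of other hairpins. An exact permutation test of the hairpin alone gave p = 0.214 for miR-486 and 0.792 for miR-3107. Because the arms and strands were nearly fixed multiples of each other, neither the use of the 2 arms nor that of the 2 strands could be measured here, and the 4 tests of level are not independent.

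The third question was what the level of miR-486 moved with. Its within-age SD was 0.311 on the log2 scale, rank 105 from the most variable of 199 miRNAs (median 0.322). Among the 30 most abundant miRNAs, where the median SD was 0.230, it held rank 5. The spread between animals of the same age was thus near the middle of all miRNAs but high among the abundant ones.

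Red blood cells carry miR-486 as well, and their defining miRNA is miR-451a, which is made without Dicer. In young libraries miR-451a was between 3743 and 7643 FPKM and in aged libraries between 1885 and 7968. The ratio of miR-486-5p to miR-451a had a range of 380 to 549 with a median of 499.7 in young muscle, and a range of 247 to 1641 with a median of 716 in aged muscle. The extremes were both aged libraries, replicate 1 with the highest miR-451a and the lowest aged miR-486-5p, and replicate 5 with the lowest miR-451a. The ratio thus ranged more widely in aged than in young libraries, a difference that was not tested. In aged replicate 5, the shallowest library, miR-451a was 1885 FPKM and a single read was estimated at 377 FPKM. The highest ratio therefore rests on few reads of miR-451a.

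Across the 12 libraries miR-486-5p and miR-451a had a Pearson r of -0.12 (permutation test, p = 0.715) and a Spearman rho of -0.06 (p = 0.868), and with adjustment over 4 relations p was 0.856 and 0.885. Within the 6 young libraries r was 0.875 and rho 0.943 (exact permutation tests, p = 0.0278 and 0.0167, adjusted p = 0.111 and 0.0667). Within the 6 aged libraries r was -0.64 and rho -0.54 (exact permutation tests, p = 0.169 and 0.297, adjusted p = 0.678 and 0.878). Without aged replicates 1 and 5, which lie farthest on the miR-451a axis, r was 0.446. The pooled r near 0 therefore combined values of opposite sign, and neither passed the adjustment. The aged r includes aged replicate 5, whose miR-451a value rests on few reads.

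The red cell list as a whole held miR-451a, miR-144-3p and miR-144-5p, and its summed level ranged from 5828 to 10486 FPKM in young and from 3022 to 10507 in aged libraries. None of the 3 was called between the ages, while 2.28% of all tested miRNAs were called lower, and their median log2 change was -0.34. The change was above 0 for 1 of the 3 and below 0 for 2. miR-451a averaged 5248 ± 1465 and 4383 ± 2020 FPKM, and miR-144-3p 1717 ± 367 and 1039 ± 375 (SD, n = 6), with limma adjusted p = 0.583 and 0.189. miR-144-5p went the other way, from 566 ± 305 to 609 ± 286 FPKM (log2 change 0.14, limma adjusted p = 0.933). In aged replicate 5 miR-144-3p was 419 FPKM, near the estimated 377 FPKM of a single read. The white cell miRNAs, miR-223-3p, miR-142-3p, miR-142-5p and miR-150-5p, summed to between 8449 and 19468 FPKM in young and between 11136 and 24904 in aged libraries. None of these 4 was called and their median log2 change was 0.36. The change was above 0 for 3 of the 4 and below 0 for miR-150-5p (-0.17, limma adjusted p = 0.823). No defining marker of either list was at 0 in any library, and the part that blood cells had in the level of miR-486 was not tested.

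The muscle miRNAs gave a mixed picture. With miR-1a-3p, which rises in muscle differentiation, r was 0.548 (permutation test, p = 0.0680, adjusted p = 0.136) and rho 0.490 (p = 0.110, adjusted p = 0.237). It was 0.599 within young and 0.419 within aged libraries (exact permutation tests, p = 0.219 and 0.404, adjusted p = 0.293 and 0.798), and 0.457 without young replicates 5 and 6. With FPKM rescaled by the median of ratios over miRNAs, r was 0.716 (permutation test, p = 0.00915, adjusted p = 0.0366) and rho was 0.517 (p = 0.0903, adjusted p = 0.361). With miR-133a-3p, which shares precursor transcripts with miR-1a, r was -0.54 (permutation test, p = 0.0631, adjusted p = 0.136) and rho -0.48 (p = 0.118, adjusted p = 0.237). It was -0.75 within young and -0.05 within aged libraries (exact permutation tests, p = 0.0875 and 0.935, adjusted p = 0.175 and 0.935), -0.50 without aged replicate 6 and young replicate 5, and -0.30 after the rescaling. These are both muscle markers and their r had opposite signs. An abundant miRNA takes part in the total that scales every other one, so shares of the same library are not free of each other. With the estimated depth r was 0.0581 and rho -0.05 (permutation tests, p = 0.856 and 0.885).

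**Figure D4:**
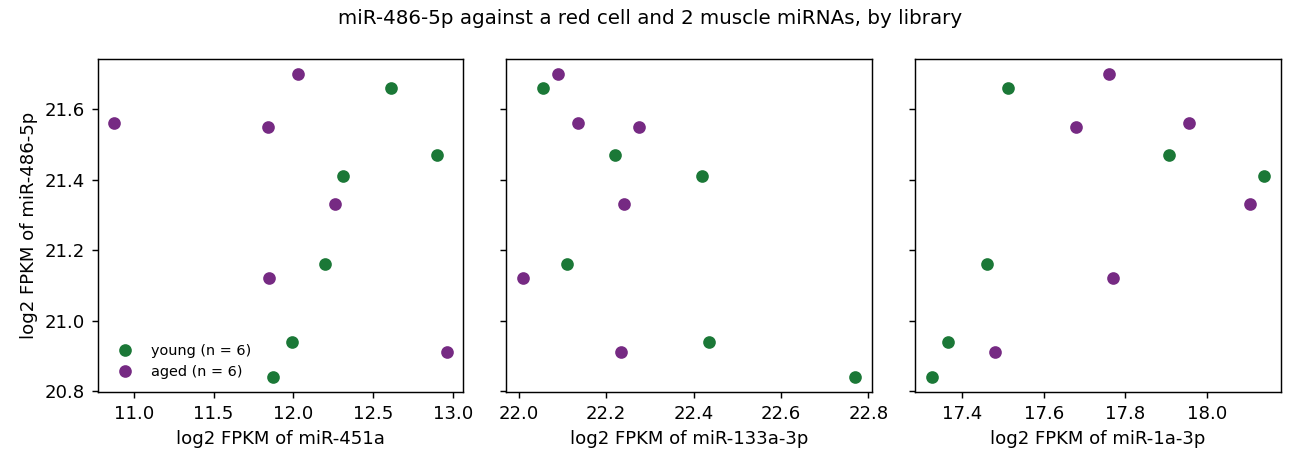
Deposited log2 FPKM of miR-486-5p (vertical axis) against log2 FPKM of miR-451a, miR-133a-3p and miR-1a-3p (horizontal axes), a point per library, young in green and aged in purple. For miR-133a-3p and miR-1a-3p the FPKM of genomic copies were summed. The young points rise with miR-451a (r = 0.875) and the aged points fall (r = -0.64). The lowest miR-451a value, in aged replicate 5, rests on few reads.

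The miRNAs whose levels were most like that of miR-486-5p were sought among 212 others above 0 in all libraries. The median r was -0.28, and 7 had an r over 0.5. The 5 highest were let-7i-3p (r = 0.837), miR-10a-5p (0.680), miR-378a-5p (0.596), miR-221-3p (0.586) and miR-10b-5p (0.581). With each age centred on its own mean, these were 0.830, 0.667, 0.582, 0.630 and 0.591, so they did not rest on a difference between the ages. let-7i-3p averaged 522 FPKM over the 12 libraries, while miR-10a-5p averaged 1131565 and miR-10b-5p 6008717. A single read was estimated at 377 FPKM in aged replicate 5 and 214 FPKM in young replicate 4, so a level of 522 FPKM is only a few reads there. All points share library, depth and scaling, and the r values are given as a description.

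The 7 muscle-enriched miRNAs chosen to set beside miR-486 are miR-1a-3p, miR-133a-3p, miR-133b-3p, miR-206-3p, miR-208a-3p, miR-208b-3p and miR-499-5p. Of these, 6 were tested and miR-208a-3p, the miRNA of a cardiac myosin gene, was at 0 in all libraries. miR-206-3p rose (log2 change 1.54, SE 0.39, limma adjusted p = 0.0296), from 812 ± 637 to 1981 ± 480 FPKM (SD, n = 6), and 0.622% of all tested miRNAs were called higher. It is known for its role at the neuromuscular junction and in regeneration. Its call was lost in many of the alternatives, including those without young replicate 1, 3 or 5 or without aged replicate 2, 3, 4, 5 or 6. The median log2 change of the 6 was 0.48, with 4 values above 0 and 2 below. miR-1a-3p changed by 0.17 (limma adjusted p = 0.651) and miR-133a-3p by -0.17 (limma adjusted p = 0.679). miR-208b-3p and miR-499-5p, the miRNAs of slow myosin genes, gave 1.29 and 0.79 (limma adjusted p = 0.552 and 0.613) and were above 0 in 3 young and 4 aged and in 3 young and 5 aged libraries, respectively. The sum of the muscle markers miR-1a-3p, miR-133a-3p, miR-206-3p and miR-499-5p ranged from 4544284 to 7317348 FPKM in young and from 4448886 to 5287195 in aged libraries.

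**Figure D5:**
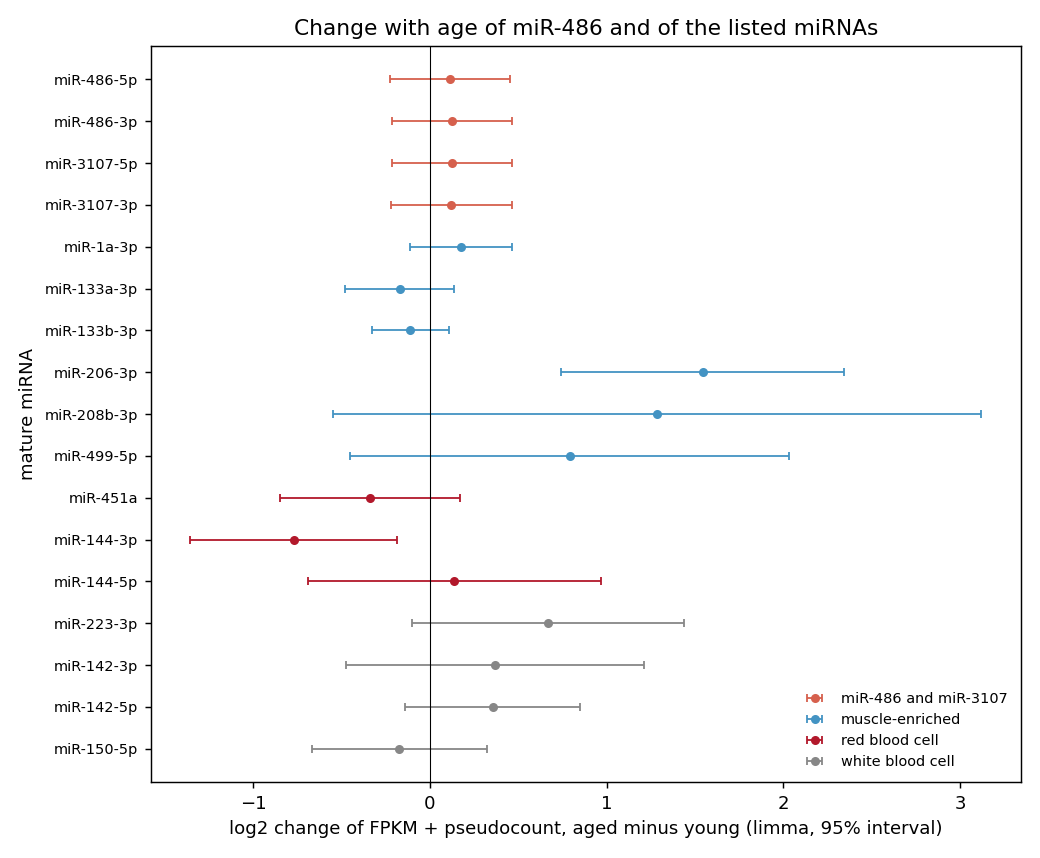
Log2 change from young to aged (horizontal axis, limma estimate with 95% interval) of FPKM plus pseudocount for the 4 rows and the listed miRNAs (vertical axis), coloured by list. The 4 rows lie at 0.11 to 0.12 with intervals that include 0, and miR-206-3p at 1.54.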

How the data were processed

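As stated in the study's methods, small RNA libraries of 12 muscles were indexed and sequenced in a shared lane, adaptors were trimmed, BWA with default settings aligned the reads to mm10, and the authors derived FPKM for each mature miRNA in miRBase 20. Deposited values are these FPKM on the log2 scale, rounded to 2 decimals, with 0 for no read. How strand and reads that fit several places were treated is not given in the sources used here.

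Here, values were returned to FPKM and genomic copies summed. Reads were estimated from the FPKM of a single read, taken as the commonest of the lowest values above 0 in a library. Levels were compared as log2(FPKM + 48.2), where the pseudocount was the smallest non-zero FPKM of a library, taken as the median of the 12, with limma 3.58.1 (R 4.3.3, eBayes with trend) over the 482 miRNAs above 0 in at least 5 of 12 libraries, with Benjamini-Hochberg adjustment and a threshold of 0.05. All tests were two-sided. Arm ratios used the same fit over 130 hairpins. Shares, single rows and relations used permutation tests (Python 3.11.15, SciPy 1.17.1), exact over the splits of 6 against 6 and within an age, and with 100000 resamples for relations over all libraries. Counting error assumes independent reads, and reads carried no molecular identifiers. The fit was tested on simulated data.

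The miRNAs named were the 4 rows, the listed miRNAs and cell type markers, the 4 most abundant others in young muscle, the 5 with the highest r to miR-486-5p, and pairs as constant as the 4 rows. These members and lists were chosen with earlier results of these data known. Genes are from GENCODE M21 and sequences from RefSeq. Groups came from the age labels. Alternatives covered the pseudocount, filter, scaling, variance model, depth, replicate block and each library left out. A further list of miRNAs is not reported here.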

Additional observations from a re-analysis of the deposited data

Results flagged for a closer look

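In 5 of 48 groups of 6 values tested, a library stood apart from the other 5 by Dixon's criterion, where chance gives about 1 in 20, or 2.4. On the log2(FPKM + pseudocount) scale, miR-142-3p was 7.59 in young replicate 3 and 8.72 to 9.30 in the other young libraries. That low value is 145 FPKM in a library where a single read was estimated at 152 FPKM, so it lies at the floor of detection. The remaining 4 concern differences between the rows of the locus in aged muscle, and each is a single step of the 2 decimals in which the values were deposited. miR-3107-5p minus miR-3107-3p was -0.16 in aged replicate 2 and -0.17 in the others, and miR-486-3p minus miR-3107-3p was -0.09 there and -0.10 in the others. miR-486-5p minus miR-3107-5p was 0.03 in aged replicate 3 and 0.02 in the others, and miR-486-5p minus miR-486-3p was -0.04 there and -0.05 in the others.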

How the results depend on the processing

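None of the 4 rows was called between the ages under any alternative run (p from 0.485 to 0.996 over the level tests, adjusted except for the single-row permutation tests). Quantile normalization, which sets abundant values by rank, turned the log2 change of miR-486-3p to -0.0153 (limma adjusted p = 0.922) and that of miR-3107-3p to -0.10 (limma adjusted p = 0.732). Leaving out each library gave 0.0337 to 0.205 for miR-486-5p, 0.0460 to 0.215 for miR-486-3p and miR-3107-5p and 0.0403 to 0.211 for miR-3107-3p. The difference in share stayed above 0, at 0.00916 to 0.537 percentage points for miR-486-5p and 0.0403 to 0.621 for miR-3107-3p. The change of the miR-3107 arm ratio ranged from -0.000334 (without young replicate 3) to 0.00767. In the muscle-enriched list the number called was 0 with a pseudocount of 1 FPKM, with no filter, without the variance trend and with depth as a covariate, and 0 to 1 with a library left out. The r of miR-486-5p with miR-451a was 0.102 after median-of-ratios scaling, 0.875 within young libraries and 0.446 without the 2 farthest, and with miR-1a-3p it was 0.716 after that scaling. With depth it was -0.28 within aged libraries and -0.0308 without the 2 farthest. The cause of these moves was not tested.

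Same-numbered young and aged libraries did not deviate together (correlations from -0.20 to 0.165 over 199 miRNAs, 0 of 6 numbers best with their own). No pairing by number was thus seen, though the check cannot exclude one that leaves no shared deviation. With the replicate block the log2 change was 0.11 for miR-486-5p (limma adjusted p = 0.857), 0.12 for the other rows (0.847), -0.01 and 0.00 for the arm ratios of miR-486 and miR-3107, and the shares differed by 0.289 to 0.349 percentage points (exact permutation within numbers, adjusted p = 0.688 for each row, unadjusted p = 0.688 for miR-486-5p and 0.594 for the others). Over all miRNAs the number called was 14 in the fit reported, 14 with the block, 6 with a pseudocount of 1 FPKM and 7 with no filter. It was 8 with a filter on the mean or with depth as a covariate, and 11 with 10 times the pseudocount or without the variance trend. With miR-486-5p as the only row of the locus in the scaling total it was 13. It was 15 with voom, 17 with median-of-ratios scaling, 19 with quantile normalization, and 6 to 16 with a library left out. Limma voom on estimated reads moved the median change of all miRNAs to -0.10 and gave 0.06 for miR-486-5p, and a pseudocount of 1 FPKM moved that median to 0.18.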
